A study of Mus musculus with 24 samples.

Results

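The 6 Dlx genes of the mouse, Dlx1 to Dlx6, were followed through the promoter fragments that were captured at them. A captured HindIII fragment was taken as a Dlx fragment when it held an annotated end of the gene in mm10 (GRCm38), or lay within 1 kb of one. The rule gave 6 fragments, 1 for each gene, of 22203 captured fragments in all. The series measured promoter capture Hi-C, which enriches chromatin ligation products for promoter fragments and lists the fragments that each promoter touches more often than its caller expects. It did so in mouse cranial neural crest cells, the embryonic cells that build most of the facial skeleton. There were 24 libraries in 12 groups of 2. The 4 tissues labelled FNP, Mx, Md and PA2 were taken at E11.5 from Ezh2cKO embryos, which carry a conditional knockout of the Polycomb enzyme gene Ezh2. Md and PA2 were also taken at E11.5 from embryos labelled Hoxa2PTE-36kb-del, and PA2 from embryos labelled Hoxa2PTE-42kb-del. The same 4 tissues came from WT embryos at E11.5, and a further WT group, labelled NCCprogenitors, came from E8.5. The labels spell out neither the tissue names nor the Cre driver of the knockout nor the ends of the deletions. They state cell sorting only for Wnt1::Cre;ROSARFP and Ezh2cKO embryos, in which Wnt1::Cre marks cells of the neural crest and dorsal neural tube.

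Dlx genes encode homeodomain transcription factors related to Distal-less of the fly. They lie in pairs, Dlx1 with Dlx2, Dlx3 with Dlx4 and Dlx5 with Dlx6, and the genes of a pair are known to share enhancers. In the pharyngeal arches their expression is known to be nested, with Dlx1 and Dlx2 throughout, Dlx5 and Dlx6 in the lower part and Dlx3 and Dlx4 nearest the tip, and this order patterns upper against lower jaw. In cells where they are silent, Dlx promoters are well known targets of Polycomb repressive complexes, whose enzyme Ezh2 methylates histone H3 and whose target promoters can touch each other over long distances.

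The Dlx1 fragment, chr2:71521822-71529796, also held an end of Metap1d, a mitochondrial methionine aminopeptidase gene. The Dlx2 fragment was chr2:71536367-71550155. The other pair had chr11:95104192-95127247 for Dlx3 and chr11:95142509-95146269 for Dlx4. The Dlx4 fragment missed the annotated end of its gene by 25 bases and was named through the 1 kb margin. The Dlx5 fragment was chr6:6879164-6883001. The Dlx6 fragment, chr6:6864914-6870464, held the upper end of Dlx6, not its lower one, together with a start of the antisense transcript Dlx6os1. Dlx6os1 lies on the minus strand, so the upper end is the 3′ end of Dlx6. The annotated start of Dlx6, at chr6:6863334, lies outside the fragment. Calls given below for Dlx6 are calls of that fragment, not of the Dlx6 start. The 250 bases before 4 transcription starts that lie inside the captured fragments are shown to let the loci be compared, from RefSeq on GRCm38.p6, 5′ to 3′ on the strand of the transcript, with CpG dinucleotides in capitals. They lie at chr2:71529195-71529444 on the plus strand for Dlx1 and at chr2:71546755-71547004 on the minus strand for Dlx2. For the antisense transcripts they lie at chr11:95144803-95145052 on the plus strand for Dlx4os and at chr6:6869534-6869783 on the minus strand for Dlx6os1.
Dlx1: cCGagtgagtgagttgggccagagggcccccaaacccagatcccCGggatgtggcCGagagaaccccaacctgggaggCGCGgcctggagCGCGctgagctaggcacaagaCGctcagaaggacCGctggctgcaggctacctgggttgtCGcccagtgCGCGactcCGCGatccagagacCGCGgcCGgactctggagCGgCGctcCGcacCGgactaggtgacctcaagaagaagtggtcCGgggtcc
Dlx2: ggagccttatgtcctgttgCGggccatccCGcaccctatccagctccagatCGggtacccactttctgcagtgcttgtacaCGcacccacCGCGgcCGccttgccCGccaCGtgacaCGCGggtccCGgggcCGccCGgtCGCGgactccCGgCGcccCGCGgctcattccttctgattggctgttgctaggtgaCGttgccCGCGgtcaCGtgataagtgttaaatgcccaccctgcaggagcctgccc
Dlx4os: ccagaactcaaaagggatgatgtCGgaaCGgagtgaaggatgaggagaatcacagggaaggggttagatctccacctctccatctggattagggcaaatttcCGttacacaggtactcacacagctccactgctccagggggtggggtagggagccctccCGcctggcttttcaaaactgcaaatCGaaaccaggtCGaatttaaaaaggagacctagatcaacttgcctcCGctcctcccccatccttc
Dlx6os1: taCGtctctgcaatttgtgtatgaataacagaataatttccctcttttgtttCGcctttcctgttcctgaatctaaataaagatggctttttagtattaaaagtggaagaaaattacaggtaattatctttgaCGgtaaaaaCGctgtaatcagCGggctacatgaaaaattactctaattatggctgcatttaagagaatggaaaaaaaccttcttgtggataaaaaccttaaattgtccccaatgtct
The Dlx1 and Dlx2 stretches held 22 and 24 CpG dinucleotides, more than 85.2% and 88.0% of the 32851 mouse promoter stretches of that length, whose median was 6. The Dlx4os stretch held 7 and the Dlx6os1 stretch 5. The homeodomain core TAATTA, searched on both strands, was present 2 times in the Dlx6os1 stretch, not in the other 3, and in 4.84% of all promoter stretches. The E-box CACGTG was present 2 times in the Dlx2 stretch and in 6.02% of all. Starts of Dlx3, Dlx4, Dlx5 and Dlx6 themselves are not shown. Nor is that of Dlx6os2, a further antisense transcript that starts inside the Dlx6 fragment. Its stretch held 7 CpG dinucleotides and 0 copies of TAATTA.

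Each file listed the interactions of 1 library with a score of at least 5, between 142284 and 190343 of them. The score weighs an interaction against the background of its own library, so scores were not compared as amounts between libraries. Read counts were not given, so depth is unknown, and a fragment without a call in a library was not shown to be without contact. The numbers below are therefore numbers of called partner fragments on the same chromosome (cis calls). An interaction between 2 captured fragments was listed once. In the 18 WT and Ezh2cKO libraries the fragment at the higher coordinate came first in all such pairs, and in the 6 deletion libraries in 50.8% to 51.3%. Calls were counted from either side for that reason. Transcript levels were not part of these files, so the labelled tissues were not checked against marker genes. Every library had its own batch label, so batches could not be tested.

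The 3 loci reached into different surroundings, and the Dlx5/6 locus reached by far the most fragments. Averaged over all 24 libraries, Dlx5 had 67.3 cis calls and Dlx6 54.8, more than 99.5% and 99.1% of all captured fragments. Dlx3 averaged 21.3, Dlx2 18.2, Dlx1 15.6 and Dlx4 10.5 calls, where the median over the 10344 fragments that passed the filter of 5 calls on average was 10.7. All 6 Dlx fragments passed that filter.

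Nearly all calls from the Dlx5/6 pair ran to lower coordinates, 99.7% of those of Dlx5 and 96.7% of those of Dlx6, at a median distance of 899 and 863 kb. They fell in and beside Dync1i1, which encodes a dynein intermediate chain and in which exons are known to act as limb enhancers of the Dlx5/6 pair in human and mouse, and in Slc25a13, a mitochondrial carrier gene. The strongest steady partner, chr6:6001967-6006769 inside Dync1i1, was called in all 24 libraries with a median score of 26.6 over the calls of both fragments. Dlx5 had 20 such partners called in every library and Dlx6 had 5. The run with the most fragments called in at least 12 libraries, 26 at chr6:5988869-6054160, had, counting every called fragment in that interval, 22 to 27 called fragments in each Ezh2cKO library, 20 to 27 in each E11.5 WT library and 19 or 20 in each E8.5 library. Next to it, chr6:5895889-5975475 inside Dync1i1 held 13.5 ± 3.34 in Ezh2cKO and 19.1 ± 4.39 in E11.5 WT (SD, n = 8 each), with overlapping ranges of 8 to 18 and 11 to 25. The E8.5 libraries had 8 and 10 there.

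At the Dlx1/2 pair the steadiest partners lay centred at -294 kb (negative towards lower coordinates) inside Dync1i2, the paralogue of Dync1i1. A run of 8 fragments there, chr2:71225857-71255395, was reached in all 8 Ezh2cKO, all 6 deletion and all 8 E11.5 WT libraries, and in neither E8.5 library. Its best partner, chr2:71250373-71251493, was called in 22 libraries with a median score of 9.63 over the calls of both fragments. On the other side the pair reached Itga6, an integrin gene, in 19 libraries, the fragment of Pdk1, a pyruvate dehydrogenase kinase, and that of Rapgef4, an exchange factor for small GTPases, which Dlx1 called in 13 and 17 libraries.

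Dlx3 and Dlx4 called the interval between Dlx4 and the tachykinin gene Tac4, with a run of 14 fragments called in at least 12 libraries at chr11:95204687-95265242. Dlx3 called 5 fragments of that run in all 24 libraries, the best of them chr11:95242563-95244877, where the median score of its calls was 12.2. At its far end Dlx3 called a fragment with an end of Tac4 in 16 libraries, and beyond it the promoter of Nxph3, a neurexophilin gene, in 17. Every locus had such a run, and by their rule runs hold only partners called in at least 12 libraries. No Dlx1, Dlx2 or Dlx4 partner was called in all 24 libraries.

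**Figure D1:**
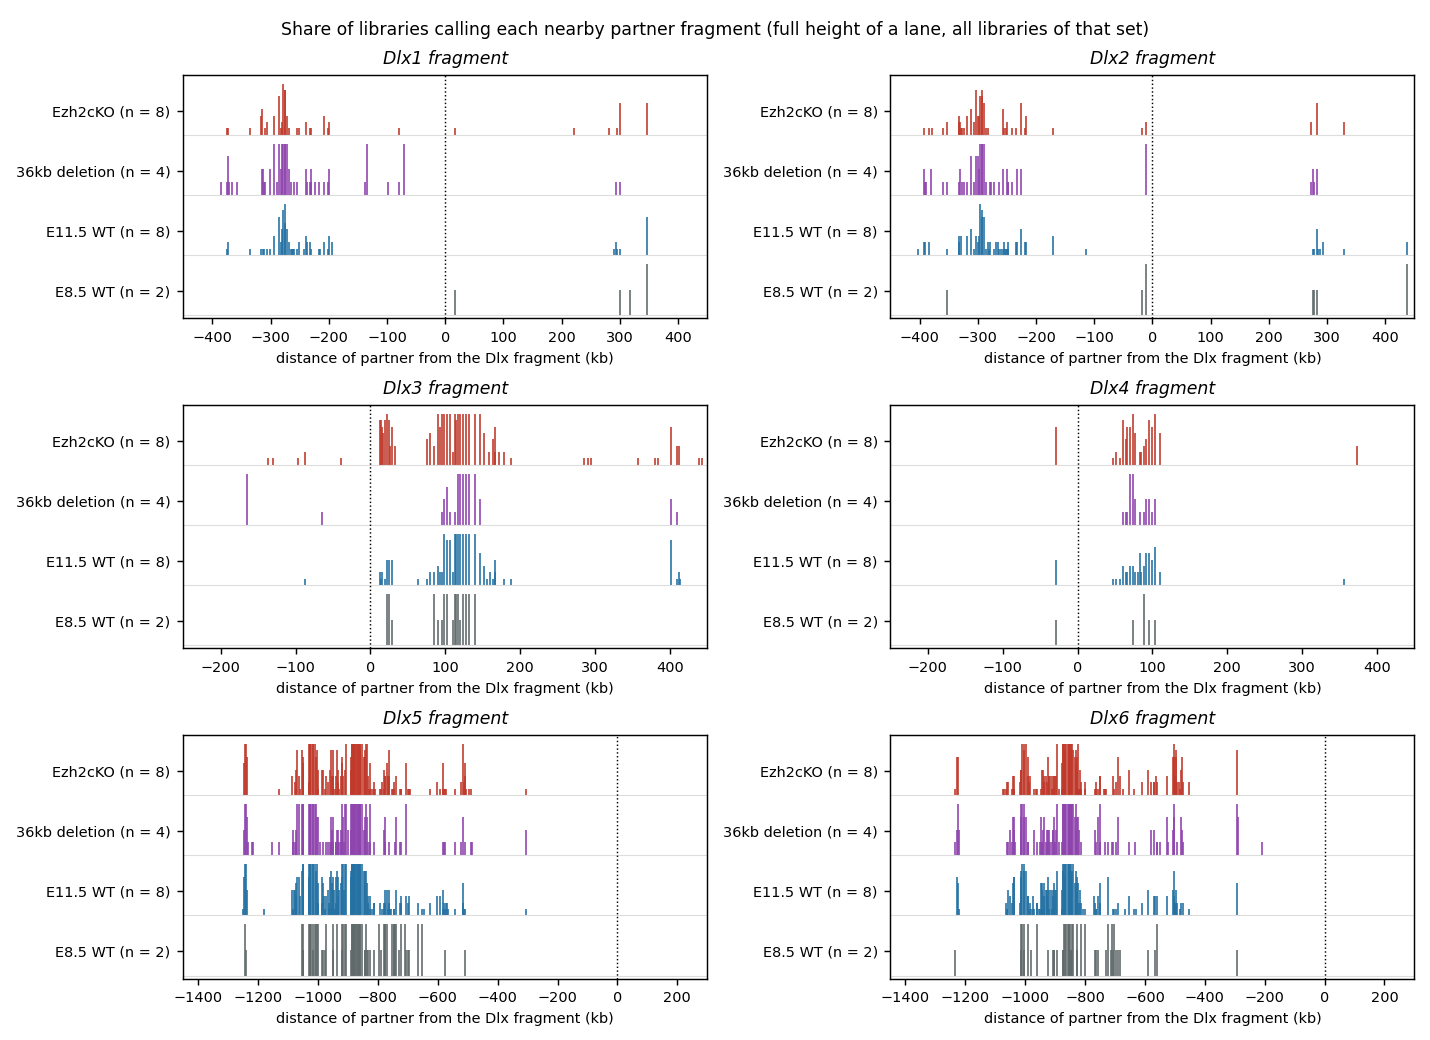
Partner fragments near each Dlx fragment, by distance in kb (x axis, negative towards lower coordinates); in each lane the height of a line is the share of that set's libraries with the call, for Ezh2cKO (n = 8), the 36kb deletion (n = 4), E11.5 WT (n = 8) and E8.5 WT (n = 2). The run in Dync1i2 at Dlx1 and Dlx2 is missing from the E8.5 lane, the fragments at 14.5 and 19.9 kb between Dlx3 and Dlx4 stand highest in the Ezh2cKO lane, and the runs of Dlx5 and Dlx6 are present in all 4 lanes.

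The fragments of a pair shared part of their partners. Over all partners called in any library, Dlx5 and Dlx6 shared 142, which was 82.6% of those of Dlx5 and 75.9% of those of Dlx6. Dlx1 and Dlx2 shared 68, or 65.4% of those of Dlx1 and 53.5% of those of Dlx2, and Dlx3 and Dlx4 shared 20, or 28.6% of those of Dlx3 and 35.7% of those of Dlx4. Among partners called in at least 12 libraries, Dlx5 and Dlx6 shared 37, which was 61.7% of those of Dlx5 and 90.2% of those of Dlx6. Dlx3 and Dlx4 shared 7, which was 41.2% of those of Dlx3 and all 7 of Dlx4. Dlx1 and Dlx2 shared 5 of 8 each. The fragments of a pair neighbour each other, so these shares describe 1 region seen from 2 fragments.

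Loss of Ezh2 was asked about with all 4 tissues together. The Dlx3 fragment had more calls in Ezh2cKO crest and the Dlx2 fragment fewer, while the other 4 did not pass the test. Dlx3 had 23 calls in the lowest, 30 in the median and 37 in the highest of the 8 Ezh2cKO libraries, against 10, 18 and 37 in the 8 WT libraries. The groups overlapped. Its mean was 30.6 ± 5.48 calls in Ezh2cKO and 19.5 ± 8.88 in WT (SD, n = 8 each), and the change was 0.70 on the log2 scale (SE 0.14, limma, adjusted p = 0.00246). Dlx2 had 4, 13.5 and 18 calls in Ezh2cKO, against 9, 15.5 and 37 in WT. Dlx2 averaged 12.4 ± 5.04 calls in Ezh2cKO and 18.1 ± 9.30 in WT (SD, n = 8 each), a log2 change of -0.56 (SE 0.16, limma, adjusted p = 0.0239). Log2 changes are of calls plus 0.5 per 10000 cis calls of the library, and p-values were adjusted over all 10344 fragments, of which 10.8% were called in this comparison, 5.38% as higher and 5.39% as lower. That is the background for 2 called of 6.

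**Figure D2:**
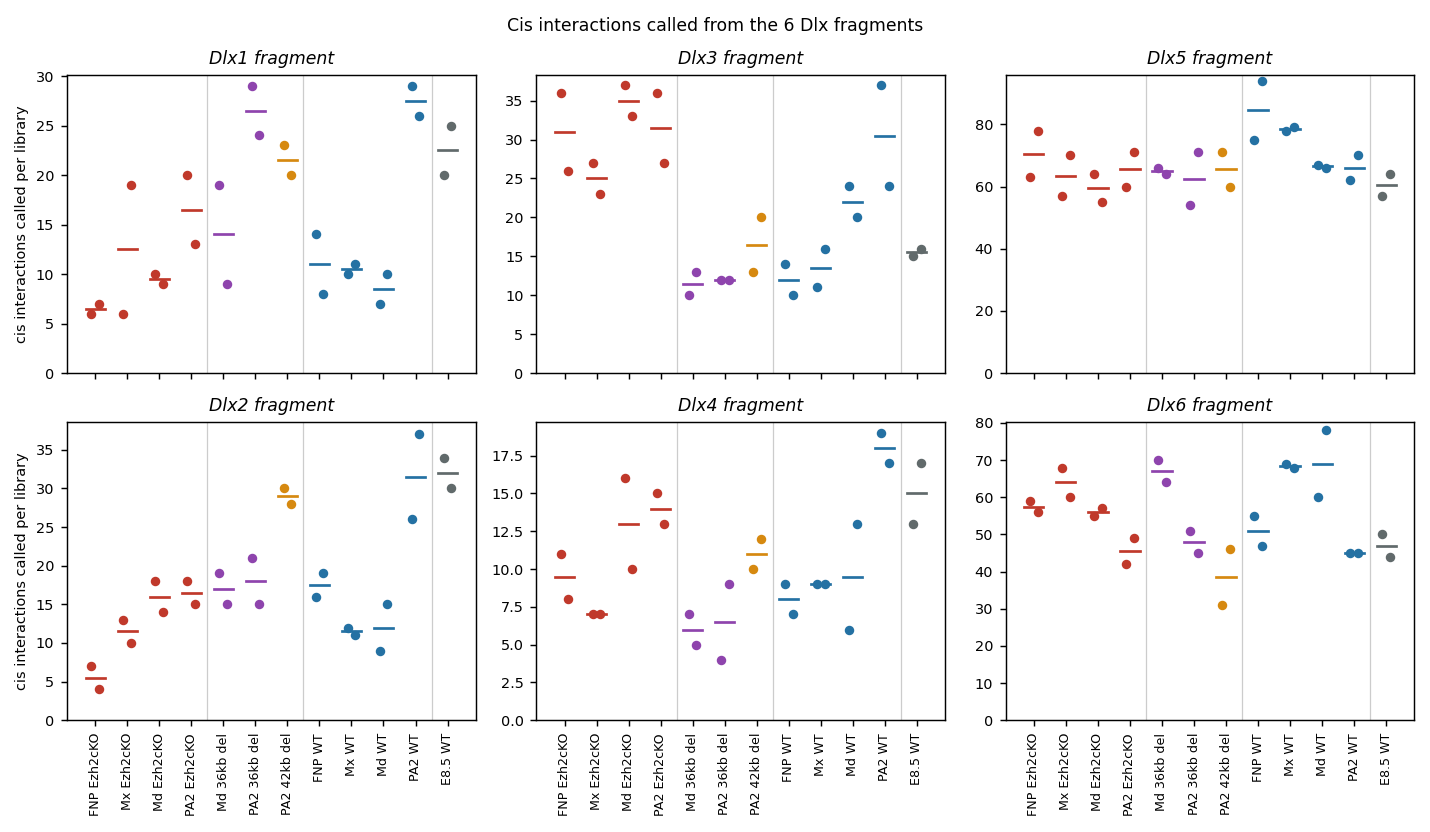
Cis calls of each Dlx fragment (y axis, number per library) in the 12 groups, with 2 libraries a group as points and their mean as a bar; red Ezh2cKO, purple and orange the deletions, blue E11.5 WT, grey E8.5 WT. Dlx3 lies between 23 and 37 calls in Ezh2cKO and between 10 and 13 with the 36kb deletion, and Dlx5 and Dlx6 keep above 30 in every library.

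The size of both changes differed between tissues as measured. In FNP, the Dlx3 fragment had 36 and 26 calls in Ezh2cKO against 14 and 10 in WT (log2 change 1.36, SE 0.28, limma, adjusted p = 0.0142). In Mx it had 27 and 23 calls in Ezh2cKO against 11 and 16 in WT, and in Md 37 and 33 against 24 and 20, with adjusted p = 0.231 and 0.309 by limma. In PA2 the libraries interleaved, with 36 and 27 calls in Ezh2cKO against 37 and 24 in WT (log2 change -0.01). Both Ezh2cKO libraries thus stood above both WT libraries in 3 of 4 tissues. For Dlx2 the FNP libraries gave 7 and 4 calls in Ezh2cKO against 16 and 19 in WT (log2 change -1.60, SE 0.31, limma, adjusted p = 0.00939). The PA2 libraries gave 18 and 15 in Ezh2cKO against 26 and 37 in WT, with adjusted p = 0.145. In Md the direction was the other way, 18 and 14 calls in Ezh2cKO against 9 and 15 in WT, with adjusted p = 0.63. Of all fragments, 0.831% were called within FNP, 0.193% as higher and 0.638% as lower. The Dlx3 call in FNP ended without WT replicate 2 or Ezh2cKO replicate 1 (adjusted p = 0.169 and 0.229 by limma), and the Dlx2 call without WT replicate 2 or Ezh2cKO replicate 2 (adjusted p = 0.0967 and 0.157). No Dlx fragment was called within Mx, Md or PA2, where 1.26%, 1.84% and 1.63% of all fragments were. A test for an effect that differs between tissues called no Dlx fragment (limma F test, Dlx2 unadjusted p = 0.000755, adjusted p = 0.372) and 1 of 10344 in all, or 0.00967%.

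The Dlx2 call was narrow. It ended when only calls within 2 Mb were counted (log2 change -0.22, adjusted p = 0.473 by limma), and with any of 8 single libraries left out, at adjusted p between 0.0532 and 0.0656. The Dlx3 call held with each library left out in turn, at adjusted p up to 0.0103. For the other 4 fragments the log2 changes were -0.34 for Dlx1, -0.03 for Dlx4, -0.22 for Dlx5 and -0.09 for Dlx6, with adjusted p = 0.328, 0.943, 0.112 and 0.597 by limma.

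Of 102 Dlx partners steady in either genotype, 2 were gained in Ezh2cKO by the rule of at least 7 libraries against at most 1, a share near the 1.42% of all steady cis interactions that were gained. They were the Dlx3 partners between Dlx3 and Dlx4 at chr11:95129644-95130786 and chr11:95134321-95136947, 14.5 and 19.9 kb from the Dlx3 fragment by their centres. Each was called in 7 of 8 Ezh2cKO libraries and in 1 of 8 WT libraries, that one from PA2. No Dlx partner was lost by the reverse rule, where 2.09% of all were. The run between Dlx4 and Tac4 had, counting every called fragment in its interval, 14 to 16 in each Ezh2cKO library against 10 to 16 in each WT library, with means of 15.0 ± 0.535 and 12.8 ± 2.43 (SD, n = 8 each). In FNP these were 15 and 15 in Ezh2cKO against 11 and 10 in WT, and in PA2 16 and 15 against 16 and 16. The Dlx3 and Dlx4 fragments called each other in 6 of 8 Ezh2cKO libraries, both of FNP, Md and PA2. In WT they did so in 4 of 8 libraries, both of Md and PA2. These runs and pairs were picked with their values known and carry no test.

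Distant calls made up a smaller share in Ezh2cKO, past the test at Dlx3/4 and Dlx5/6. Of the cis calls of the Dlx1/2 locus, 4.16 ± 4.63% spanned 500 kb or more in Ezh2cKO, against 27.8 ± 25.6% in WT (SD, n = 8 each, exact permutation within tissues, adjusted p = 0.0586). At Dlx3/4 the share was 0.368 ± 1.04% in Ezh2cKO against 18.5 ± 17.7% in WT (exact permutation, adjusted p = 0.0417). At Dlx5/6, where the Dync1i1 domain itself lies that far off, it was 95.5 ± 1.35% in Ezh2cKO against 98.1 ± 2.31% in WT (exact permutation, adjusted p = 0.0278). The 6 two-sided tests of this comparison used 1296 permutations each. Over all captured fragments the same share averaged 45.2 ± 2.50% in Ezh2cKO and 47.4 ± 1.04% in WT (SD, n = 8 each). In percentage points the Dlx5/6 difference was thus near that over all fragments. The Dlx3/4 call ended without any of 6 single libraries and the Dlx5/6 call without any of 4, at adjusted p between 0.0556 and 0.0787. The difference at Dlx1/2 was largest in FNP and Mx. At Dlx1/2 the FNP libraries had 0.0 and 0.0% in Ezh2cKO against 66.7 and 48.1% in WT, and the Mx libraries 0.0 and 6.90% against 27.3 and 54.5%. In PA2 the Dlx1/2 shares were 2.63 and 7.14% in Ezh2cKO against 0.0 and 1.59% in WT. At Dlx3/4 the FNP libraries had 0.0 and 2.94% in Ezh2cKO against 21.7 and 35.3% in WT, and the Mx libraries 0.0 and 0.0% against 45 and 32%. The Md libraries had 0.0 and 0.0% in Ezh2cKO against 0.0 and 12.1% in WT there, and the PA2 libraries 0.0 and 0.0% against 1.79 and 0.0%.

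**Figure D3:**
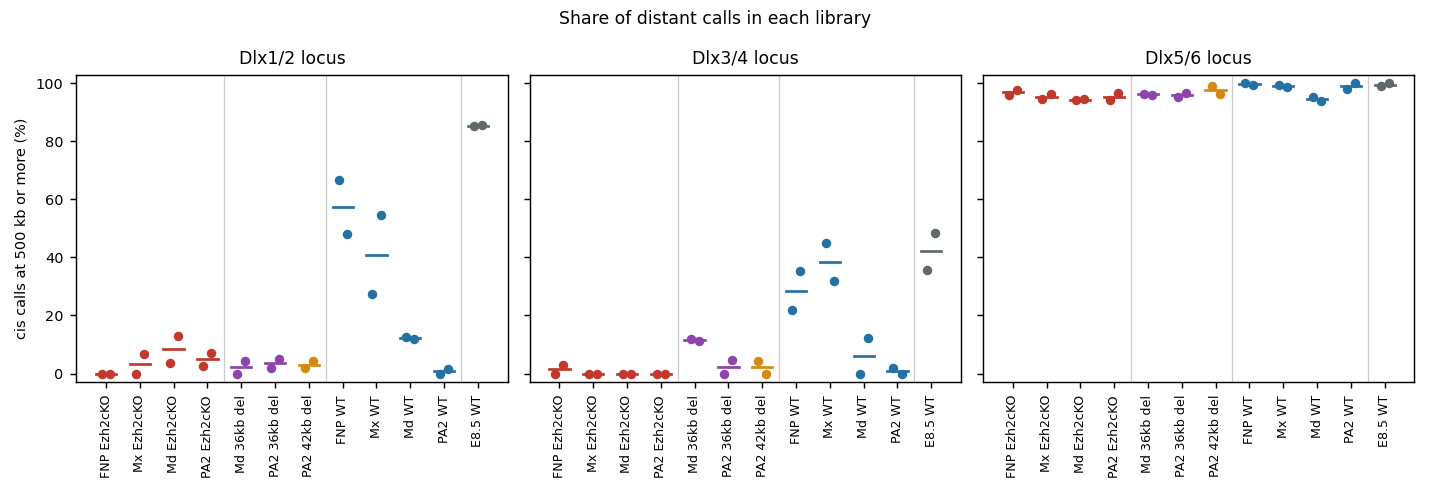
Share of cis calls at 500 kb or more (y axis, percent of the locus's calls) for each locus in the 12 groups, 2 libraries a group as points with their mean as a bar. At Dlx1/2 and Dlx3/4 the FNP and Mx points of Ezh2cKO lie near 0 below their WT points and the E8.5 points are high, while Dlx5/6 stays above 90 throughout.

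Some of the distant partners lay in windows at 5 sets of genes, which were chosen with their values known, so no test is given. The Dlx1 and Dlx2 fragments called the Hoxd cluster with its neighbour Evx2, 3.1 to 3.24 Mb away, genes of homeodomain factors that pattern limbs and trunk. No Ezh2cKO library had such a call. In WT, the Dlx2 fragment called 4 and 5 fragments of that window in FNP, 1 and 4 in Mx, and 0 in each Md and PA2 library, and Dlx1 called 4 and 3, then 0 and 3, then 0 in each. The Dlx4 fragment called the Hoxb cluster, 1.06 to 1.23 Mb away, in no Ezh2cKO library. In WT it called 4 and 4 fragments there in FNP, 5 and 5 in Mx, 0 and 4 in Md and 0 in both PA2 libraries. The Dlx6 fragment called Fezf1, a zinc finger gene of the forebrain 16.4 Mb away, in 0 of 8 Ezh2cKO libraries and 5 of 8 WT libraries, both of FNP, both of Mx and 1 of PA2. Its highest score there was 36.7. The Hoxa cluster, 45.3 Mb from Dlx6, was called in 0 Ezh2cKO libraries and in both Mx WT libraries, with 1 and 4 fragments. Sp9, a Sp-family factor gene 1.7 Mb from the pair, was called by Dlx1 or Dlx2 in both FNP WT libraries with 3 fragments each. Dlx3 called none of these windows in any library, and Dlx5 called Fezf1 in both Mx WT libraries and 1 fragment of the Hoxa window in 1 FNP WT library, with a score of 5.29. In the 250 bases before their starts, Hoxd13 had 31 CpG dinucleotides, Hoxd10 20, Evx2 14, Hoxb4 14, Sp9 18 and Fezf1 12. Of the distant partners named further below, Pax6 had 15, Lhx2 25 and 24 before separate starts, and Tbr1 5. The nearby partners ran from 1 at Tac4 to 30 at Rapgef4, so the ranges overlapped.

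**Figure D4:**
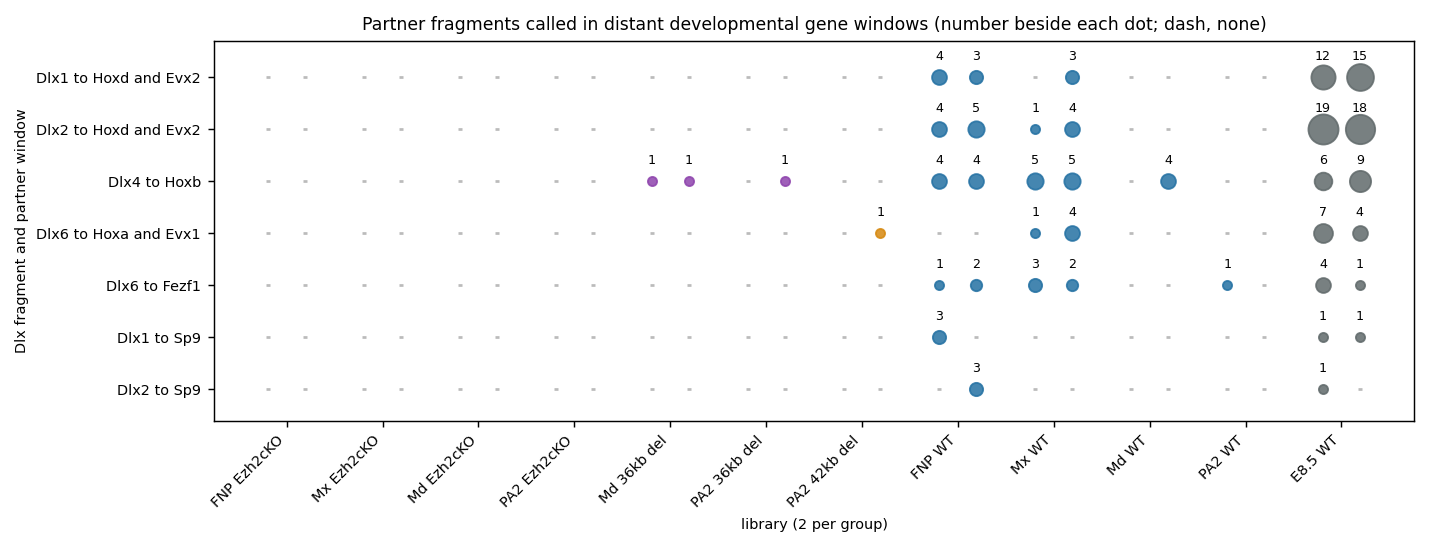
Number of partner fragments (dot size and number) called by a Dlx fragment (y axis, with the partner window) in each library (x axis, 2 per group). All 8 Ezh2cKO libraries are empty, the deletion libraries hold single fragments, and the WT calls stand mostly in FNP, Mx and E8.5, with 4 fragments from Dlx4 in 1 Md library and 1 from Dlx6 in 1 PA2 library.

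Counts of all promoter partners at 100 kb or more, on any chromosome, did not pass the test. They averaged 2.5 ± 1.20 in Ezh2cKO against 3.88 ± 1.73 in WT at Dlx1/2 (SD, n = 8 each, exact permutation, adjusted p = 0.176). At Dlx3/4 they were 1.75 ± 0.463 against 2.75 ± 1.16 (exact permutation, adjusted p = 0.0833), and at Dlx5/6 0.625 ± 0.744 against 1.38 ± 1.06 (exact permutation, adjusted p = 0.176).

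Between E8.5 progenitors and E11.5 crest, the Dlx1 and Dlx2 fragments lost calls. Dlx2 had 9 to 37 calls in the 8 E11.5 WT libraries, with a median of 15.5, against 34 and 30 at E8.5. Its log2 change was -1.05 (SE 0.25, limma, adjusted p = 0.00296). Dlx1 had 7 to 29 calls at E11.5, with a median of 10.5, against 20 and 25 at E8.5, a log2 change of -0.91 (SE 0.33, limma, adjusted p = 0.0444). Both sets overlapped through PA2, whose WT libraries had 26 and 37 calls of Dlx2 and 29 and 26 of Dlx1. Of all fragments 28.9% were called at this contrast, 18.6% as higher and 10.3% as lower at E11.5. Dlx4 had 6, 9 and 19 calls at E11.5 against 13 and 17 at E8.5 (log2 change -0.61, adjusted p = 0.131 by limma), and Dlx3, Dlx5 and Dlx6, with log2 changes of 0.09, 0.16 and 0.17, did not pass the test either. Counted within 2 Mb only, the signs turned, to 0.82 for Dlx1 and 0.60 for Dlx2 with adjusted p = 0.0575 and 0.12 by limma. The Dlx1 change was 0.10 when only calls listed from its own side were counted. Dlx1 also lost its call with any of 10 single libraries left out, among them either E8.5 library, at adjusted p = 0.139 and 0.271 by limma, and Dlx2 without E8.5 replicate 1, at 0.0681.

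Far calls took a smaller share of the Dlx1/2 calls at E11.5. Of the Dlx1/2 calls, 27.8 ± 25.6% at E11.5 (SD, n = 8) spanned 500 kb or more, against 85.2 and 85.5% in the E8.5 libraries (exact permutation, adjusted p = 0.0444). Promoter partners of the Dlx1/2 locus numbered 3.88 ± 1.73 at E11.5 against 13 and 15 at E8.5, and those of Dlx3/4 2.75 ± 1.16 against 7 and 8 (exact permutation, adjusted p = 0.0444 each). The E11.5 tissues were pooled in these tests, so spread between tissues enters their p-values. With 8 libraries against 2, 45 arrangements exist, and the unadjusted p of these 3 results, 0.0222, is the smallest they can give. Each lost its call in 9 of 10 repeats without 1 library, at adjusted p of 0.0556 without an E11.5 library and 0.167 without an E8.5 library. For Dlx3/4 the far share was 18.5 ± 17.7% at E11.5 against 35.7 and 48.5% at E8.5 (exact permutation, adjusted p = 0.16). In the Hoxd and Evx2 window the E8.5 libraries had 12 and 15 fragments called from Dlx1 and 19 and 18 from Dlx2, and in the Hoxb window 6 and 9 from Dlx4. The Hoxa window had 7 and 4 from Dlx6. No E11.5 WT library reached more than 5 in any of these windows.

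Of 155 Dlx partners steady at either stage, 44 were called in both E8.5 libraries and at most 1 of 8 E11.5 WT libraries. Among all cis interactions 18.7% were of that kind. Dlx2 had 17 of them and Dlx1 had 12, of which 13 and 9 lay in the Hoxd and Evx2 window. The others included Pax6, an eye and forebrain regulator 34.1 Mb from both fragments, Lhx2, a LIM factor gene 33.2 Mb below Dlx2, and Tbr1, a cortical T-box gene 9.72 Mb below Dlx1. Dlx1 also had Sp9 among them. Dlx4 had 4, with 3 in the Hoxb window. Dlx6 had 4, with 1 in the Hoxa window and 3 in Slc25a13, and Dlx5 had 7, with 6 in Slc25a13. Dlx3 had none. Partners of the reverse kind, in at least 7 E11.5 WT and neither E8.5 library, numbered 15 of the 155, and 11074 of 96507 among all cis interactions. They were 2 fragments of Dync1i2 for each of Dlx1 and Dlx2, 4 fragments of Dync1i1 and 1 outside any protein-coding gene for Dlx5, and 2 of Dync1i1 and 2 others for Dlx6. For Dlx3 they were the Nxph3 promoter and 1 fragment 106 kb away.

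**Figure D5:**
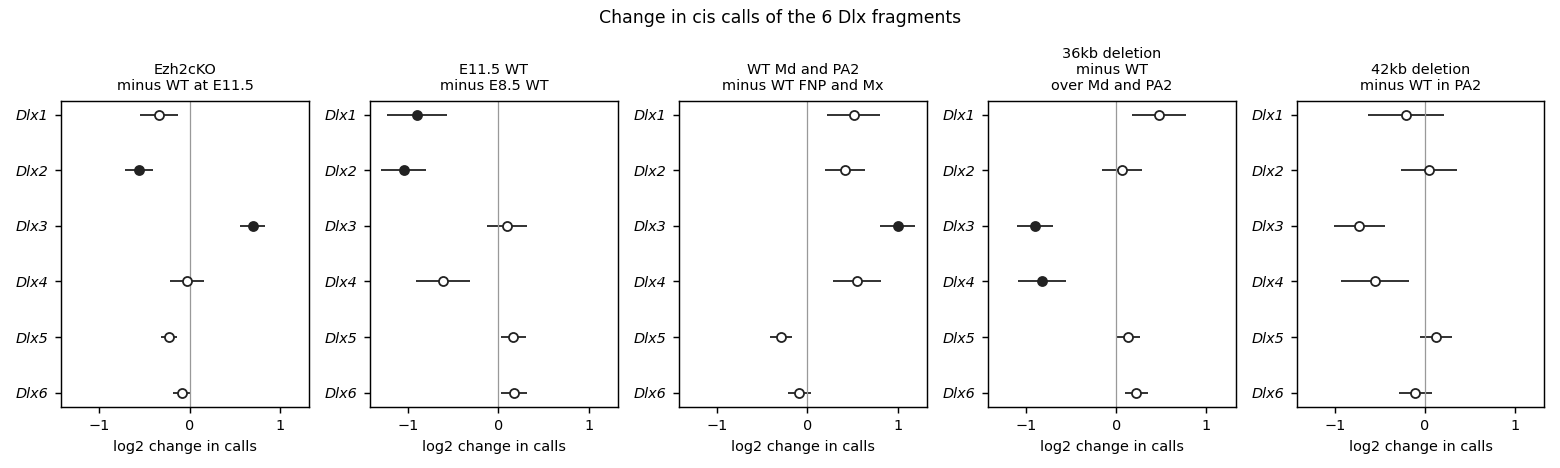
Log2 change in cis calls (x axis) of each Dlx fragment in 5 comparisons, as points with 1 standard error to each side; filled points had an adjusted p under 0.05 in limma. Dlx3 is filled in 3 panels, to the right in Ezh2cKO and in WT Md and PA2 and to the left with the 36kb deletion.

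Among WT tissues at E11.5 the Dlx3 fragment had more calls in Md and PA2 than in FNP and Mx. The values were 24 and 20 in Md and 37 and 24 in PA2, against 14 and 10 in FNP and 11 and 16 in Mx, so the sets did not overlap. The log2 change was 1.00 (SE 0.20, limma, adjusted p = 0.0191), where 0.783% of all fragments were called, 0.416% as higher and 0.367% as lower. It lost the call without FNP replicate 2, Mx replicate 1, Md replicate 1 or PA2 replicate 1, at adjusted p between 0.0766 and 0.0969 by limma, and at 0.0527 with variances estimated robustly and without a trend. Dlx4 had 6 and 13 calls in Md and 19 and 17 in PA2, against 9 and 7 in FNP and 9 and 9 in Mx (log2 change 0.55, adjusted p = 0.43 by limma). For Dlx1, Dlx2, Dlx5 and Dlx6 the changes were 0.51, 0.42, -0.29 and -0.09, with adjusted p between 0.34 and 0.869 by limma. The PA2 libraries stood highest for Dlx1 and Dlx2, as given above, against 7 to 15 calls in Md. The test for any difference between the 4 tissues called no Dlx fragment (limma F test, adjusted p = 0.0771 for Dlx3 and 0.0786 for Dlx2) and 0.271% of all. Of FNP against the other 3, no Dlx fragment was called and 0.058% of all were. At unadjusted p under 0.05 that contrast had Dlx3 alone among the Dlx fragments, and 707 of all 10344 fragments. The log2 change of Dlx3 was -0.76 (adjusted p = 0.396 by limma).

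The 36kb deletion, named after Hoxa2 and so on the chromosome of Dlx5 and Dlx6, was compared with WT over Md and PA2. The genotype label of PA2 replicate 2 with this deletion holds the title of another sample, and the library was grouped by its own title. Without it, the log2 changes of Dlx3 and Dlx4 given below were -0.87 and -1.07, with adjusted p = 0.0155 and 0.0171 by limma. The Dlx5 and Dlx6 fragments did not pass the test, with log2 changes of 0.14 and 0.22 and adjusted p = 0.523 and 0.271 by limma. Calls fell at Dlx3 and Dlx4, on another chromosome. The labels state no cell sorting for the deletion embryos, and the part of cell preparation in the deletion comparisons was not tested. Dlx3 had 10 and 13 calls in Md and 12 and 12 in PA2 with the deletion, against 24 and 20 in Md and 37 and 24 in PA2 of WT. All 4 deletion libraries lay below all 4 WT libraries, and the log2 change was -0.90 (SE 0.20, limma, adjusted p = 0.00669). Dlx4 had 7 and 5 calls in Md and 4 and 9 in PA2 with the deletion, against 6 and 13 in Md and 19 and 17 in PA2 of WT (log2 change -0.83, SE 0.27, limma, adjusted p = 0.0497). Of all fragments 11.1% were called in this comparison, 5.46% as higher and 5.65% as lower. The Dlx4 call ended in 20 of 24 fits that left out 1 library, at adjusted p between 0.0512 and 0.221.

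With the 42kb deletion in PA2 no Dlx fragment was called, where 1.84% of all were. Dlx3 had 13 and 20 calls with the deletion against 37 and 24 in WT (log2 change -0.73, adjusted p = 0.179 by limma), and Dlx4 had 10 and 12 with the deletion against 19 and 17 in WT. The PA2 WT libraries served both deletion comparisons.

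Single contacts were compared by a rule of 0 of 4 libraries with the 36kb deletion against 4 of 4 WT libraries of Md and PA2, and its reverse. Of 111 steady Dlx partners 5 were lost and 5 gained, a share near the 4.93% and 5.35% of all steady cis interactions that were. The Dlx3 and Dlx4 fragments called each other in 0 of 4 libraries with the 36kb deletion and 0 of 2 with the 42kb deletion, against 4 of 4 WT libraries of Md and PA2. Dlx3 lost 4 partners and Dlx4 1, that one being the same pair. This pair is thus counted from both sides among the 5 lost, whereas the shares over all interactions count each pair once. By the reverse rule Dlx1 gained 2, Dlx2 1, Dlx3 1 and Dlx5 1. The Dlx1 gain at the Metap1d fragment chr2:71449942-71459533, at -71.1 kb, was called in all 6 deletion libraries and in none of the other 18, with a median score of 11.6. The Dlx1 fragment holds the other end of Metap1d, so this contact joins both ends of that gene and cannot be assigned to Dlx1 alone. Another gain of the Dlx1 fragment, at Hat1, a histone acetyltransferase gene, was called in the 4 libraries of the 36kb deletion only. The Dlx2 gain was the fragment next to the Dlx1 fragment, at -11.5 kb, which was called in all 6 deletion libraries, in 2 of 8 Ezh2cKO libraries, in 0 of 8 E11.5 WT libraries and in both E8.5 libraries. The Dlx3 gain lay in Col1a1, a collagen gene, at -165 kb. The files of the deletion libraries also differ from the others in listing order, and the part of that difference in these contacts was not tested.

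Calls between chromosomes were few, with 23 pairs of a Dlx fragment and a partner, nearly all called in 1 library. The exception was chr1:167419091-167422987, which overlaps no protein-coding gene. Dlx3 called it in 5 of 8 Ezh2cKO and 4 of 4 libraries of the 36kb deletion, with a median score of 21.0, and Dlx4 in 1 and 3. Neither called it in the 42kb deletion, E11.5 WT or E8.5 libraries. Captured fragments around Dlx3 and Dlx4 on chromosome 11 that called it numbered 1 to 3 in every Ezh2cKO library, 5 or 6 in each library of the 36kb deletion and 0 in all others.

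Among genes that pattern the arches with the Dlx genes, 43 of 50 listed had a tested fragment, 46 fragments in all. In Ezh2cKO 2 were called higher, both of Bmp4, a signal of the arch epithelium and mesenchyme, and 6 lower. These were Foxd1, Nr2f2, Hand2, Emx2, Gsc and Fgf8, among them Hand2, a factor of the lower jaw downstream of Dlx5 and Dlx6, with 27.8 ± 12.0 calls in Ezh2cKO and 42.9 ± 10.9 in WT (SD, n = 8 each, log2 change -0.74, limma, adjusted p = 3.07e-06). Of all fragments 5.38% were called higher and 5.39% lower. The list's median log2 change was -0.22, against 0.01 over all fragments tested. At E11.5 against E8.5, 26 of the 46 were called higher and 1 lower, where 18.6% and 10.3% of all fragments were, with a median of 0.85 against 0.03 over all. Among them was Ednra, the endothelin receptor of the arches, with 10.6 ± 2.20 calls (SD, n = 8) against 1.0 in both E8.5 libraries. The 2 called Dlx fragments went down at this contrast. Between WT Md and PA2 and WT FNP and Mx, 1 was called higher, Hand2, and 5 lower, Runx2, Eya1, Msx2, Bmp4 and Jag1, where 0.416% and 0.367% of all fragments were. Of 12 epithelial genes 5 had a tested fragment and none was called in Ezh2cKO. Of 10 genes of GABA neurons, where Dlx genes are also active, all had a tested fragment, and none was called higher in Ezh2cKO. Gsx2 and Nkx2-1, homeodomain factors of the ventral forebrain, were called lower, with log2 changes of -2.10 and -0.69.

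Other tested fragments lay within 1 Mb of the loci. In Ezh2cKO, Cdca7 was called higher and Dcaf17 lower among 8 near Dlx1/2, and none of 21 near Dlx3/4 or 6 near Dlx5/6 was called, where 10.8% of all fragments were. With the 36kb deletion none of the 21 near Dlx3/4 was called either, while Rapgef4 and Cdca7 near Dlx1/2 and Sem1 near Dlx5/6 were called higher, where 11.1% of all fragments were called. Over the 12 group means, the named fragments on other chromosomes whose calls were most like those of Dlx3 were Krt73, Krt72 and Krt2, neighbouring keratin genes, with Pearson's r of 0.90, 0.89 and 0.88. For Dlx2 they were Kcng3, Abcc5 and the fragment of Dedd2 and Zfp526, with r of 0.88, 0.86 and 0.84. The highest r was 0.92 for Dlx1, 0.89 for Dlx4, 0.85 for Dlx5 and 0.81 for Dlx6, with Elp2 and Slc39a6, Dpp9, Kctd15 and Dsel. They are the highest of 7585 to 7834 candidates each and share libraries and depth with the Dlx fragments.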

How the data were processed

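Promoter capture Hi-C was measured in 24 libraries, 12 groups of 2 by their labels. The deposited values are interaction scores, 1 file per library and only of 5 or more. The file names give CHiCAGO, and per the submitters' processing notes the build was GRCm38 (mm10). No read counts were used, so depth is unknown and no counting intervals are given. Replicates are separate samples by their labels, and limma p-values measure the spread between replicates within groups. Fragments were named from RefSeq gene ends (1 kb margin), which named 16531 of 22203. Cis calls of each fragment, counted from either side, were taken as log2 of (calls + 0.5) per 10000 cis calls of the library. limma 3.58.1 in R 4.3.3 was fitted over 12 group means with an eBayes trend, for the 10344 fragments averaging at least 5 calls, with Benjamini-Hochberg adjustment (adjusted p under 0.05 called). The planned count took only calls listed from the fragment's own side. It changed places with its alternative after the listing order was seen. Locus measures (promoter partners at 100 kb or more, far calls at 500 kb or more) were compared by exact two-sided permutation. It was done within tissues for Ezh2cKO. For stage it pooled the E11.5 tissues, so spread between tissues enters those p-values. Runs join partners called in at least 12 libraries with gaps up to 10 kb. The named genes are the 6 Dlx fragments, called list members and neighbours, and the 3 fragments most alike. The members and lists were chosen with earlier results of these data known. The fit was tested on simulated data. Group E10.5 of the design text was not analysed here, and some results are not reported here.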

Additional observations from a re-analysis of the deposited data

Results flagged for a closer look

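The Dlx6 fragment changed one way in FNP and the other way in Mx and Md as measured. In FNP both Ezh2cKO libraries had more calls per 10000 cis calls of the library than both WT libraries, 3.74 and 3.35 against 3.30 and 2.87, a difference of 0.461. In Mx both Ezh2cKO libraries had fewer, 3.70 and 3.47 against 4.23 and 3.98, a difference of -0.520, and in Md 3.46 and 3.23 against 3.62 and 4.64, a difference of -0.784. The limma F test for an effect that differs between tissues did not call Dlx6 (adjusted p = 0.951).

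The share of Dlx1/2 calls spanning 500 kb or more was higher in both Ezh2cKO libraries of PA2 than in both WT libraries, by 4.09 percentage points, and differed by -57.4 points in FNP and -37.5 points in Mx, where both Ezh2cKO libraries lay below both WT libraries. This difference between tissues was not tested.

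Between chromosomes, the fragment chr1:167419091-167422987 was called by Dlx3 in 9 libraries and by Dlx4 in 4, all of them Ezh2cKO or 36kb deletion libraries. These calls stand outside the cis counts used in the comparisons.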

How the results depend on the processing

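The number of Dlx fragments called depended on several settings. With scores of at least 10, where only Dlx5 and Dlx6 passed the filter, 1 was called in Ezh2cKO (Dlx6), and 0 at E11.5 against E8.5, in WT Md and PA2, within FNP and with the 36kb deletion. The stage comparison called 1 in place of 2, Dlx2, with a mean of at least 2 calls, no filter, no scaling, calls listed from the fragment's own side, or variances without a trend, and 1 with calls within 2 Mb, Dlx6, neither Dlx1 nor Dlx2. Calls within 2 Mb gave 2 in place of 1 in WT Md and PA2. They gave 2 in place of 0 for any difference between the tissues, and 1 in place of 2 within FNP. They also turned the stage changes of Dlx1 and Dlx2 to 0.82 and 0.60. Calls listed from the own side turned that of Dlx1 to 0.10. Variances without a trend gave 0 in WT Md and PA2. The 36kb deletion called 1 in place of 2 with a pseudocount of 1, a mean of at least 2 calls, no filter, own-side calls, variances without a trend, or only the genotypes compared, each time losing Dlx4. With the replicate block it called 1 as well (Dlx4 adjusted p = 0.0559 by limma), and the block changed no other count. Of 66 pairs of groups, 1 correlated above 0.1. Such correlations cannot show whether libraries with the same replicate number shared embryos or preparation. The causes were not tested. Leaving out 1 library gave 1 to 2 called fragments in Ezh2cKO and with the 36kb deletion, 0 to 2 for stage and within FNP, and 0 to 1 in WT Md and PA2. Of the locus measures, scores of at least 10 gave a Dlx5/6 far-share difference of 0 in Ezh2cKO, stage differences of -6.75 and -0.5 promoter partners at Dlx1/2 and Dlx3/4, and -58.1 points of far share at Dlx1/2. Limits of 200 kb and 1 Mb gave -1.38 partners at Dlx3/4 (adjusted p = 0.037) and -23.7 points at Dlx1/2 (adjusted p = 0.044) in Ezh2cKO, both then past the threshold by the exact permutation test. Calls listed from the Dlx side only gave stage differences of 0.25 and -2.5 partners at Dlx1/2 and Dlx3/4 and -58.2 points at Dlx1/2. Leaving out 1 library gave, in Ezh2cKO, -1.11 to -0.68 partners at Dlx3/4 and far-share differences of -27.7 to -18.1 at Dlx1/2, -20.8 to -14.3 at Dlx3/4 and -3.20 to -2.30 at Dlx5/6. For stage it gave -11.1 to -9.13 partners at Dlx1/2 and -5.25 to -4.25 at Dlx3/4, with far shares of -63.0 to -53.5 and -30.0 to -17.2. With fewer libraries the stage tests have fewer arrangements.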
